A study of Mus musculus with 6 samples.

Results

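The 29 genes described here make, sense, take up, move, store and export cholesterol. They were chosen by symbol as genes of this pathway, with earlier results of these data known, and all 29 were among the 26251 genes listed in at least 1 library. By role, 7 encode enzymes of the mevalonate pathway up to farnesyl diphosphate (*Acat2*, *Hmgcs1*, *Mvk*, *Pmvk*, *Mvd*, *Idi1*, *Fdps*), 3 the steps from farnesyl diphosphate over squalene to lanosterol (*Fdft1*, *Sqle*, *Lss*) and 8 the steps from lanosterol to cholesterol (*Cyp51*, *Tm7sf2*, *Msmo1*, *Nsdhl*, *Hsd17b7*, *Ebp*, *Sc5d*, *Dhcr7*). A further 3 encode the machinery that reads sterol levels (*Srebf2*, *Insig1*, *Scap*), and 8 handle cholesterol that is already made (*Scarb1*, *Npc1*, *Npc2*, *Stard3*, *Stard4*, *Lipa*, *Soat1*, *Abca1*).

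Cells build cholesterol from acetyl-CoA, and the transcription factor SREBP2, encoded by *Srebf2*, raises the transcription of most of the enzymes when sterols in the endoplasmic reticulum run low. SCAP carries SREBP2 to the Golgi for cleavage, and INSIG1 holds both back when sterols are plentiful. Fetal Leydig cells, the androgen-producing cells of the testis interstitium, turn cholesterol into steroids, and can obtain it by synthesis, by selective uptake from lipoproteins through SR-BI (*Scarb1*), or from esters laid down by SOAT1.

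Gonads of mouse embryos at E15.5, on a C57BL/6 background, were dissociated and sequenced as single cells on the 10x Genomics platform, with 2 libraries in each of 3 groups. Control XY testes and control XX ovaries came from wild type embryos (Amh+/+; Inhbb+/+), and dKO XY testes from embryos lacking both copies of *Amh* and of *Inhbb* in every cell (Amh-/-; Inhbb-/-). The cross used mice heterozygous for each gene, both gonads of an animal were pooled, and cells were stored frozen until the genotype was known. A unique molecular identifier (UMI) marks each captured mRNA molecule, and a level below, in CPM, is the number of UMIs of a gene per 1000000 UMIs of all genes, summed over the cells of 1 type in 1 library. The libraries are the replicates (n = 2 per group).

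Of 68064 barcodes, 39350 passed the filter, with 118475468 to 221675316 UMIs per library and medians of 18415 to 27124 UMIs per cell. The filter removed barcodes with at least 25% mitochondrial UMIs, which were 24.4% and 28.3% of all barcodes for dKO XY, 4.5% and 7.65% for control XY and 9.35% and 2.22% for control XX. Any pair of libraries shared between 4 and 25 barcodes. In supporting cells, the lineage of Sertoli and granulosa cells, the control XY libraries held 2030 and 1890 CPM of *Amh*, against 17.9 and 15.7 with the dKO genotype and 1.35 and 1.43 in control XX. For *Inhbb* these levels were 161 and 184, 41.5 and 50.9, and 37.4 and 25.4 CPM, so both targeted genes were lower in each dKO XY library than in each control XY library.

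Cells were grouped without the 29 genes, so that none of them defined a cluster. The Leydig cells formed a single cluster of 3283 cells, named from 6 of 6 markers fixed for it. It drew 766 and 1102 cells from control XY, 696 and 719 from dKO XY and 0 of the 5330 and 4781 cells of control XX, which allows shares of up to 0.0563% and 0.0627% (3 cells, counting error only).

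Leydig cells held far more mRNA of the cholesterol enzymes than the other cells of the same gonads. Summed over the 18 enzymes, the level was 11980 and 11230 CPM in control Leydig cells against 8469 and 7887 CPM with the dKO genotype. In the same order, interstitial cells had 1156, 1120, 1110 and 1063 CPM, and supporting cells 879.5, 870.1, 973.3 and 766.8 CPM. Within a library, Leydig cells thus had 7.42 to 10.4 times the summed level of interstitial cells and 8.7 to 13.6 times that of supporting cells. The ratio ran from 10.6 to 17.7 against endothelial cells, from 10.3 to 16.1 against immune cells and from 10.2 to 14.2 against pericytes.

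**Figure D1:**
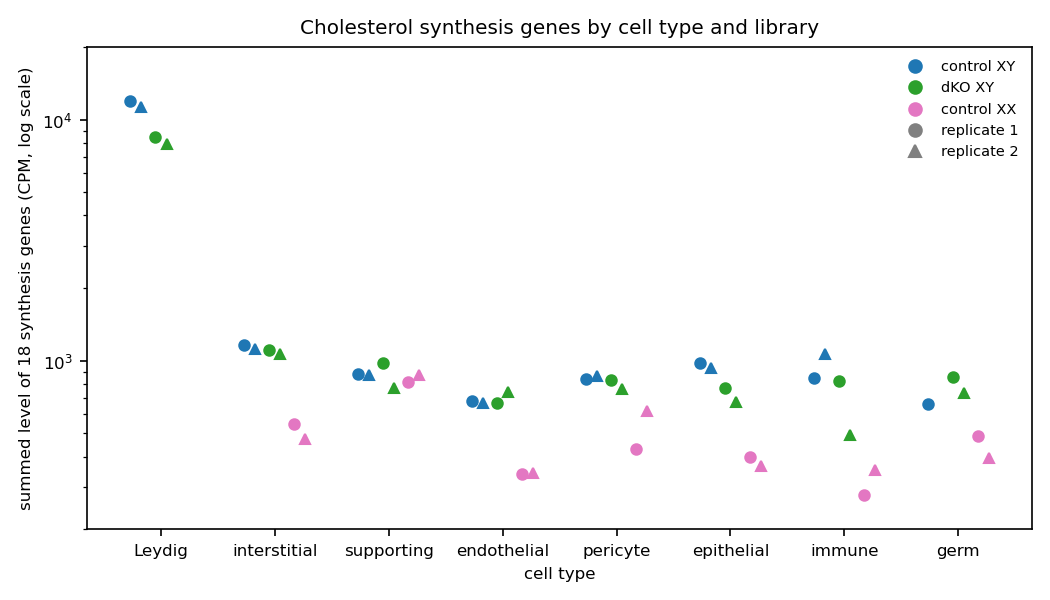
Summed level of the 18 cholesterol synthesis genes (CPM, log scale) in each cell type, with 1 point per library coloured by group and shaped by replicate. All 4 Leydig points lie between 7887 and 11980 CPM, above every other point, and the control XX points of interstitial, endothelial, epithelial, pericyte, immune and germ cells lie below the XY points of the same type.

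Gene by gene, 23 of the 29 were highest in Leydig cells in all 4 XY libraries, namely the 18 enzymes, the 3 sensing genes, *Scarb1* and *Stard4*. The edgeR quasi-likelihood test of Leydig cells against the mean of the other cell types, with the library as a block, called 27 of the 29 higher and 2 lower at an adjusted p under 0.05 (Benjamini-Hochberg). The median log2 difference over the 29 was 3.39, against −0.08 over all 15418 genes tested. As many as 71.4% of all genes were called in this comparison, 34.2% higher and 37.2% lower, so the calls say less than the size of the differences. The range ran up to 5.04 ± 0.105 (SE) for *Tm7sf2*, which encodes a reductase of the lanosterol steps, with 4.6 ± 0.117 for *Fdps*, the farnesyl diphosphate synthase, and 4.49 ± 0.114 for *Lss*, the enzyme that closes the sterol rings. Against interstitial cells alone, 27 were higher and 0 lower, where 66.4% of all genes were called, 34.1% higher and 32.3% lower. Against supporting cells, 26 were higher and 2 lower, where 64.7% were called, 29.3% higher and 35.3% lower.

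The log2 differences of the cholesterol-sensing genes lay below the median of 3.39 over the 29 genes, though not below every enzyme in each comparison. In control XY, *Insig1* had means of 328 CPM in Leydig and 66.8 in interstitial cells, beside 375 and 95.8 for the enzyme gene *Sqle*. *Srebf2* reached 101 and 106 CPM in control XY Leydig cells and 57.4 and 62.9 in interstitial cells, a log2 difference of 1.11 ± 0.0823 (SE) against the mean of all other types. *Insig1* and *Scap* differed by 2.67 ± 0.0799 and 2.53 ± 0.0704 on this scale. For 2 handling genes of late endosomes, the difference pointed the other way. *Npc1*, whose product passes cholesterol through the lysosomal membrane, was lower by −0.5 ± 0.113, and *Stard3*, a sterol carrier of late endosomes, by −0.31 ± 0.0591. The other 27 genes, with *Npc2* and *Lipa* of the lysosome among them, were called higher. *Npc1* had 13.6 and 14.7 CPM in control XY Leydig cells and 35.9 and 42 in immune cells.

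Shown here are the promoters of 3 enzymes whose mRNA was highest in Leydig cells and lower there in dKO XY. They are the 3 that fell most in dKO XY Leydig cells, described below, among the enzymes with CCAAT, the binding sequence of NF-Y, which is known to act beside SREBP2, and at most 30 exon bases in the window, and were chosen after their values were seen. Each line gives the 150 bases before the RefSeq transcription start, 5′ to 3′ on the strand of the gene (GRCm38.p6). Capitals mark CCAAT, which reads ATTGG when it lies on the other strand, and for *Hmgcs1* also TCACNCCAC, a core of the sterol response element. The windows are chr13:119690201-119690350 (plus strand) for *Hmgcs1*, whose product makes HMG-CoA, chr10:76531455-76531604 (plus strand) for *Lss*, and chr8:122443423-122443572 (minus strand) for *Mvd*, the mevalonate diphosphate decarboxylase.
Hmgcs1: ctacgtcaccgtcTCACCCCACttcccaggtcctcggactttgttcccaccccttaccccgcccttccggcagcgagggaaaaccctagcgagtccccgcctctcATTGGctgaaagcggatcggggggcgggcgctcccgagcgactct
Lss: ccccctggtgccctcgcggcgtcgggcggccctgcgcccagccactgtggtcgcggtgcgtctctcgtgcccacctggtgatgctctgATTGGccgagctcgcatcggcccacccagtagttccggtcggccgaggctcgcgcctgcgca
Mvd: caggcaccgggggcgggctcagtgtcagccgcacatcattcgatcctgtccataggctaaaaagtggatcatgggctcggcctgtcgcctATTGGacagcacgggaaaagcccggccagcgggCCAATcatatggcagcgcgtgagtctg

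In the 250 bases before the start, searched on both strands, RefSeq promoters were found for 23 of the 29 genes and for 15 of the 18 enzymes. CCAAT was present for 20 of the 23 and 14 of the 15, where 37.5% of all 27025 genes with a promoter had it. The core TCACNCCAC was present for *Hmgcs1*, 137 bases before the start, and for *Stard3*, against 1.22% of all genes. The core with AT before it, a longer form of the same element, was present for 0 of the 23, against 0.226% of all genes. CAAGGTCA, a sequence bound by the steroidogenic factor NR5A1, was found once, 52 bases before the start of *Dhcr7*, against 1.51% of all genes. A match describes letters in a window and is not evidence of binding.

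The comparison of dKO XY with control XY asks what loss of *Amh* and *Inhbb* did to these genes in each cell type. In Leydig cells, 19 of the 29 were lower in dKO XY and 0 were higher (edgeR quasi-likelihood test, Benjamini-Hochberg), where 6.86% of all 14401 genes tested were called, 4.36% higher and 2.5% lower. The count was 1 in Leydig cells under 10% mitochondrial UMIs, 6 with the listed genes used in the clustering and 8 to 22 with a library left out (8 without control XY replicate 1), as described after the single genes, whose values are for all Leydig cells. The median log2 fold change over the 29 was −0.47, against −0.01 over all genes. Every enzyme from farnesyl diphosphate on was among them, with 3 of 3 up to lanosterol and 8 of 8 from lanosterol to cholesterol. Of the mevalonate enzymes, 5 of 7 were called, of the sensing genes 0 of 3, and of the handling genes 3 of 8. The summed level of the enzymes in dKO XY was 0.705 times that in control XY. Both dKO XY libraries lay below both control XY libraries for 24 of the 29 genes and above them for 1, where 22.2% of all genes tested lay below in this way and 29.6% above.

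In the last steps, *Dhcr7*, which reduces 7-dehydrocholesterol to cholesterol (chromosome 7, 143823145 to 143848410 of GRCm38), fell from 563 and 530 CPM in control to 326 and 306 CPM in dKO XY Leydig cells. Its log2 fold change was −0.82 ± 0.0927 (SE), with an adjusted p of 0.0032 (edgeR). *Nsdhl*, a decarboxylase that removes methyl groups of lanosterol (chromosome X, 72918557 to 72958514), fell from 419 and 347 to 248 and 249 CPM (−0.65 ± 0.109, adjusted p = 0.013, edgeR). The 2 dKO XY values of each gene were close to each other and below both control values. *Msmo1*, the methylsterol oxidase, was at 1310 and 1250 against 956 and 803 CPM (−0.56 ± 0.112, adjusted p = 0.0233, edgeR). *Tm7sf2* was at 216 and 188 against 145 and 134 CPM (−0.56 ± 0.105, adjusted p = 0.0196, edgeR). The other called genes of these steps, *Sc5d*, *Hsd17b7*, *Cyp51* and *Ebp*, had log2 fold changes of −0.54, −0.47, −0.47 and −0.45.

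*Lss*, whose promoter is printed above (gene at chromosome 10, 76531588 to 76557138), had 249 and 259 CPM in control libraries against 142 and 154 with the dKO genotype. The log2 fold change was −0.81 ± 0.086 with an adjusted p of 0.00244 (edgeR). The neighbouring enzymes of the squalene steps changed by −0.53 (*Sqle*, the squalene epoxidase) and −0.43 (*Fdft1*, the squalene synthase). In the mevalonate pathway, *Mvd* was at 261 and 251 against 173 and 160 CPM (−0.64 ± 0.0928, adjusted p = 0.00766, edgeR). *Acat2*, which joins acetyl-CoA units at the first step, was at 372 and 347 against 239 and 249 CPM (−0.59 ± 0.0871, adjusted p = 0.00812, edgeR). *Hmgcs1* was at 1620 and 1600 against 1170 and 1020 CPM (−0.58 ± 0.101, adjusted p = 0.0151, edgeR), with no overlap between the groups. *Idi1* and *Fdps* changed by −0.51 and −0.49. The kinases *Mvk* and *Pmvk* were not called, at −0.23 ± 0.085 and −0.32 ± 0.0851.

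Among the sensing genes, *Insig1*, itself a known target of SREBP2, went from 339 and 317 CPM in control to 249 and 167 CPM in dKO XY Leydig cells. Its log2 fold change of −0.68 ± 0.175 did not pass the test (adjusted p = 0.0586, edgeR), and its 2 dKO XY libraries were far apart. *Srebf2* was at −0.36 ± 0.105 and *Scap* at −0.02 ± 0.131. Of the handling genes, *Stard4*, a cytosolic sterol carrier, *Lipa*, the lysosomal acid lipase, and *Scarb1* were called lower, at −0.49, −0.41 and −0.36. *Scarb1* (chromosome 5, 125277087 to 125341094) had 1300 and 1390 CPM in control Leydig cells against 1060 and 1080 with the dKO genotype. *Soat1*, *Abca1*, *Npc1*, *Npc2* and *Stard3* had log2 fold changes between −0.24 and 0.27 and were not called.

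**Figure D2:**
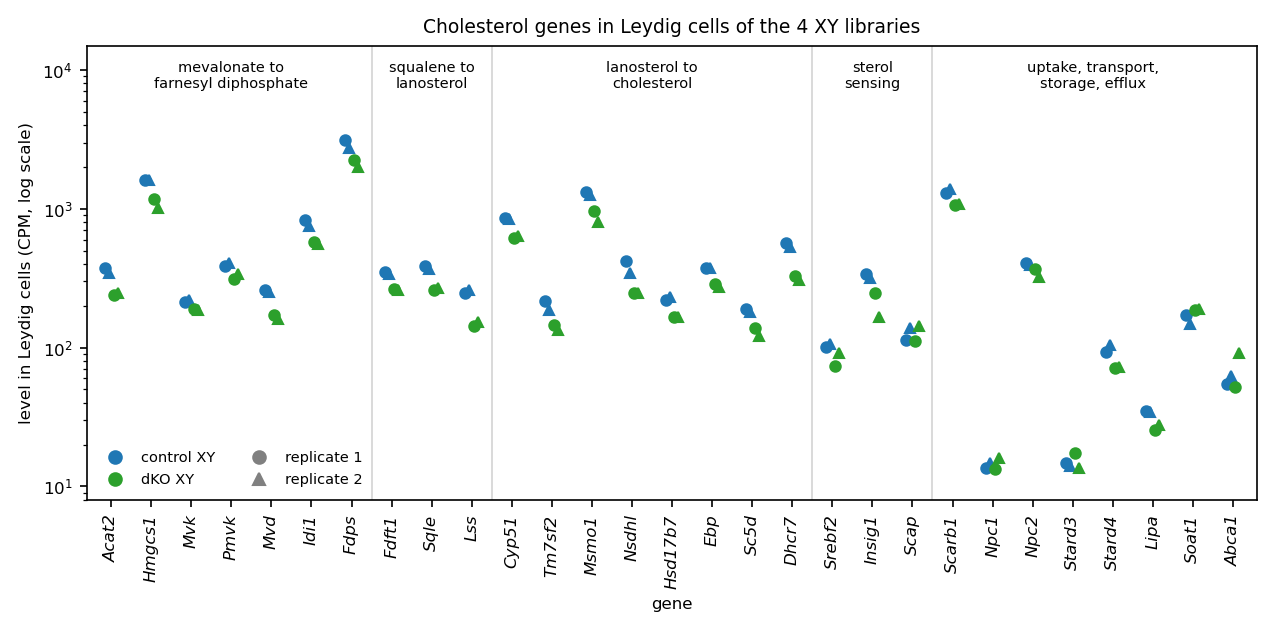
Level of each of the 29 genes in Leydig cells (CPM, log scale), with 1 point per XY library coloured by group and genes ordered by role. For 24 genes both dKO XY points lie below both control XY points, and for *Soat1* they lie above them, where 22.2% and 29.6% of all genes do.

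The Leydig difference moved together with the mitochondrial share of the cells. In Leydig cells with under 5% mitochondrial UMIs, the summed level of the enzymes was 4977 and 3477 CPM in control against 4854 and 2838 in dKO XY, and from 5% to 10% it was 11110 and 8648 against 10540 and 8019. At these shares the groups overlapped. From 10% to 15% the sums were 15710 and 13820 CPM against 9716 and 9807, and from 15% to 25% they were 14540 and 13490 against 9435 and 8326, with no overlap. Cells under 5% made up 17% and 6.62% of the control Leydig cells and 39.4% and 16.8% of the dKO XY ones, so that 1 library of each group had nearly the same share. The 10% to 15% range held 207 and 375 control XY and 79 and 177 dKO XY cells. Barcodes with at least 25% mitochondrial UMIs, removed by the filter, were 24.4% and 28.3% of all dKO XY barcodes against 4.5% and 7.65% of control XY ones. The removed barcodes were not given a cell type, and the part of this unequal loss in the Leydig difference was not tested.

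With the Leydig cells under 10% alone, 527 and 591 control cells against 577 and 498 dKO XY cells, only *Lss* was called among the 29 (−0.54, adjusted p = 0.0168, edgeR), while 678 of all 13739 genes tested were (4.93%). *Lss* then had 202 and 192 CPM in control against 133 and 136 in dKO XY. *Scarb1* changed sign, to 0.08, with 969 and 875 CPM in control against 994 and 939 in dKO XY. Both dKO XY libraries were below both control XY libraries for 15 of the 29 genes and above them for 0, where 25% of all genes lay below and 23.8% above. The enzyme sums were 9787 and 8168 CPM in control XY against 8226 and 7052 in dKO XY, which overlap. When the 29 genes and the related lists were put back among the genes used to cluster the cells, 6 of the 29 were called, where 4.39% of all genes were. The Leydig cluster then held 683 and 975 control XY cells in place of 766 and 1102, and 535 and 583 dKO XY cells in place of 696 and 719. A supporting cluster led by *Myl1* then held 98 and 150 control XY cells in place of 14 and 20. Its dKO XY cells were 670 and 663 in place of 445 and 445. Which cells moved between these clusters was not traced, and their part in the lower count was not tested. Without control XY replicate 1, 8 were called, where 5.36% of all genes were. That fit holds 1 control library, which is assumed to vary like the dKO XY pair, and of the 19 genes 12 lost their call, at log2 fold changes of −0.50 to −0.39. Of the enzymes, *Lss* was called in all 11 alternatives, between −0.84 and −0.54, of which 4 leave out a library and so take the spread from the other group alone.

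Other features of these cells also differed between the groups, and their part in the result was not tested. The summed level of the 6 Leydig markers was 35960 and 34120 CPM in control against 26640 and 26350 in dKO XY, none of them at 0, and it followed the mitochondrial share in the same way (45290 and 40630 against 30970 and 33310 CPM between 10% and 15%). Supporting lineage markers summed to 178.9 and 183.8 CPM in control Leydig cells against 335.4 and 328.5 in dKO XY ones, and the 6 cell cycle markers to 61.98 and 66 against 109.4 and 130 CPM.

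Related pathways were read from lists of genes around the cholesterol pathway. Of 10 genes of fatty acid synthesis, 5 were lower in dKO XY Leydig cells and 0 higher, in the comparison where 2.5% of all genes were lower and 4.36% higher. *Acss2*, which makes acetyl-CoA from acetate, fell from 110 and 109 to 66.8 and 62 CPM (−0.8, adjusted p = 0.00341, edgeR). *Scd1*, a fatty acid desaturase, was at 76.1 and 80.7 against 44.3 and 50.2 CPM (−0.76, adjusted p = 0.00443, edgeR). Of the 6 steroid synthesis genes tested, 2 were lower: *Cyp11a1*, which cleaves the cholesterol side chain, by −0.54, and *Cyp17a1* by −0.46. Among 7 genes of the isoprenoid branches, 1 was lower (*Ggps1*, the geranylgeranyl diphosphate synthase, −0.63) and 0 were higher, and among 9 other lipoprotein receptors and sterol carriers 0 were lower and 1 was higher (*Tspo*, a mitochondrial outer membrane protein, 0.54). The 7 other sterol regulators tested gave 0 calls by edgeR, and 1 of them, *Abcg1*, had an unadjusted p under 0.05. In Leydig cells under 10% mitochondrial UMIs, *Ggps1* (−0.58, adjusted p = 0.0306, edgeR) and *Tspo* (0.56, adjusted p = 0.0139, edgeR) were the only calls among these 5 lists, with *Acss2* at −0.15 and *Scd1* at −0.29.

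In interstitial, supporting and endothelial cells, each pooled over its clusters, none of the 29 genes was called lower by edgeR. In interstitial cells, where 7.23% of all 16967 genes were called, 4.26% higher and 2.98% lower, 2 of the 29 were called, both higher in dKO XY. The median over the 29 was −0.05, against −0.01 over all genes, and the enzyme sum was 0.955 times that of control XY. Interstitial cells of dKO XY held a larger share of the Leydig profile, as given below. With that share subtracted, their enzyme sums were 988.2 and 975.8 CPM in control XY against 919.2 and 817.1 in dKO XY, without overlap. In supporting cells, where 16.8% of 15945 genes were called, 9.89% higher and 6.92% lower, 1 was called, higher, and the ratio of the enzyme sums was 0.995. Within the Sertoli-like cluster alone, some of the 29 were lower in dKO XY without overlap and others higher. *Scarb1* was at 75.5 and 98.7 CPM in control XY against 55.2 and 59.5 in dKO XY, and *Scap* at 71.8 and 86.9 against 50.2 and 60.9. *Npc2* was higher, at 234 and 209 against 339 and 282, as was *Soat1*, given below. In endothelial cells, where 0.567% of 11995 genes were called, 0.25% higher and 0.317% lower, 0 of the 29 passed by edgeR, 0 by DESeq2, and 1 had an unadjusted p under 0.05. Epithelial and immune cells, which were not tested, had enzyme sums in dKO XY of 0.756 and 0.685 times those in control XY, beside 0.705 in Leydig cells. Their values by library, with and without the Leydig profile, are given with the remaining cell types below, and with it subtracted the epithelial sums of dKO XY stayed below those of control XY while the immune sums overlapped.

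A direct test of the difference between the effects, with the library as a block, found a lower effect in Leydig than in interstitial cells for 23 of the 29 genes and a higher one for 0, where 11.8% of 16697 genes were called, 5.36% higher and 6.49% lower. *Scarb1* differed by −0.98 ± 0.107, *Dhcr7* by −0.9 ± 0.0753 and *Lss* by −0.84 ± 0.0566. Against supporting cells the effect was lower for 17 and higher for 1, where 20.4% of 15961 genes were called, 11.6% higher and 8.83% lower. *Mvd* differed by −0.99 ± 0.13, *Hmgcs1* by −0.97 ± 0.106 and *Tm7sf2* by −0.83 ± 0.156, and *Scap*, the single gene with a higher effect, by 0.44 ± 0.0899. The supporting cells of the groups lay in different clusters: the cluster led by *Myl1*, *Cck* and *Pnmt* held 445 cells of each dKO XY library and 14 and 20 of control XY, and its *Hmgcs1* level in dKO XY was 221 and 180 CPM. In the Sertoli-like cluster *Hmgcs1* was at 136 and 142 CPM in control XY against 197 and 148 in dKO XY. In cells under 10% mitochondrial UMIs, 6 genes had a lower and 1 a higher effect against supporting cells, where 12.3% of all genes were called, and 2 had a lower effect against interstitial cells, where 3.34% were. Without the block the counts were 5 lower against interstitial cells (1.07% of all genes called) and 7 lower against supporting cells (9.15%). Fewer of the 29 genes also differed in both comparisons when the listed genes took part in the clustering, with the counts in the closing section.

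**Figure D3:**
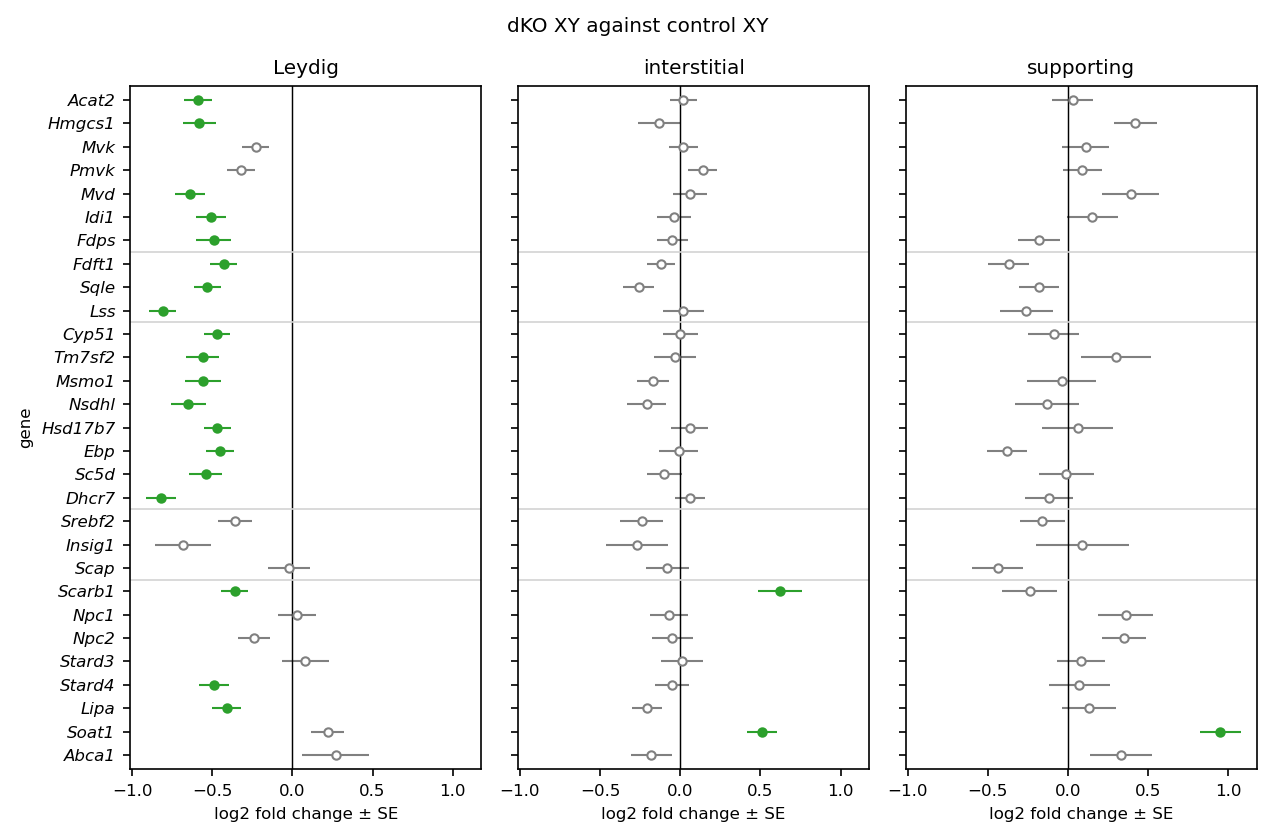
Log2 fold change between dKO XY and control XY (± SE) of each of the 29 genes in Leydig, interstitial and supporting cells, with filled points for an adjusted p under 0.05 (edgeR quasi-likelihood test). In Leydig cells 19 points are filled, all below 0, and in interstitial and supporting cells 2 and 1, all above 0.

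The 2 of the 29 genes called in dKO XY interstitial cells were *Soat1* and *Scarb1*, a count near the share of all genes called there (1227 of 16967). *Soat1*, which esterifies cholesterol for storage in lipid droplets (chromosome 1, 156424525 to 156474331), rose from 64.3 and 65.1 CPM in control to 91.3 and 94.5 CPM in dKO XY interstitial cells (0.51 ± 0.0935, adjusted p = 0.0176, edgeR). *Scarb1* was at 54 and 56.4 against 73.5 and 97.1 CPM (0.62 ± 0.137, adjusted p = 0.0366, edgeR), with the dKO XY libraries far apart. In the same cells, the level of 4 Leydig genes was 1.53% and 1.41% of that in Leydig cells of the same library for control XY, against 2.52% and 3.48% for dKO XY. With that share of the Leydig profile subtracted, *Soat1* changed by 0.50 (adjusted p = 0.0196, edgeR) and *Scarb1* by 0.60 (adjusted p = 0.0398, edgeR). When the listed genes took part in the clustering, 1 of the 2 calls was lost, and neither stood with the replicate number as a block. The call of *Soat1* was lost without any 1 of the 4 XY libraries, with log2 fold changes of 0.52 to 0.53, and that of *Scarb1* without control XY replicate 1, control XY replicate 2 or dKO XY replicate 2 (0.60, 0.65 and 0.43). The interstitial clusters had different weights in the groups: the cluster that also held the ovarian cells had 281 and 257 control XY and 637 and 310 dKO XY cells, and the cycling one 1609 and 2090 against 1817 and 1447. Within the cycling cluster *Soat1* was at 72.4 and 70.6 against 96.2 and 103 CPM and *Scarb1* at 73.6 and 74.1 against 102 and 124. Within the largest cluster *Soat1* was at 56.5 and 57.1 against 85.9 and 76.2 CPM and *Scarb1* at 42.2 and 44.2 against 55 and 60.5, without overlap in either. In the cluster shared with the ovary the *Soat1* levels overlapped, at 76.5 and 96 against 90.2 and 94.4 CPM.

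In supporting cells, *Soat1* went from 117 and 131 CPM in control XY over 232 and 243 with the dKO genotype to 395 and 458 CPM in ovaries. The 3 groups did not overlap, and the log2 fold change between dKO XY and control XY was 0.95 ± 0.129 (adjusted p = 0.000954, edgeR), the only one of the 29 called there. It was called in all 16 alternatives, between 0.58 and 1.05, which include 0.72 within the largest cluster of control XY supporting cells alone. The dKO XY level pools several clusters. In the Sertoli-like cluster, with 248 and 526 control XY and 778 and 489 dKO XY cells, *Soat1* was at 116 and 130 against 193 and 218 CPM. In the cluster led by *Myl1*, *Cck* and *Pnmt*, *Soat1* was at 282 and 270 CPM in dKO XY. The granulosa-like cluster held 69 and 26 dKO XY cells, with *Soat1* at 463 and 360 CPM. Coelomic epithelial cells showed the same order without a test, with 118 and 169, then 261 and 232, then 356 and 332 CPM. The control XY values there came from 30 and 41 cells. *Npc1* held 23.6 and 33.1 CPM in dKO XY supporting cells against 21.4 and 23.1 for control XY, a log2 fold change of 0.36 ± 0.171 that was not called (adjusted p = 0.198, edgeR), while ovarian ones held 76.7 and 74.9 CPM.

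**Figure D4:**
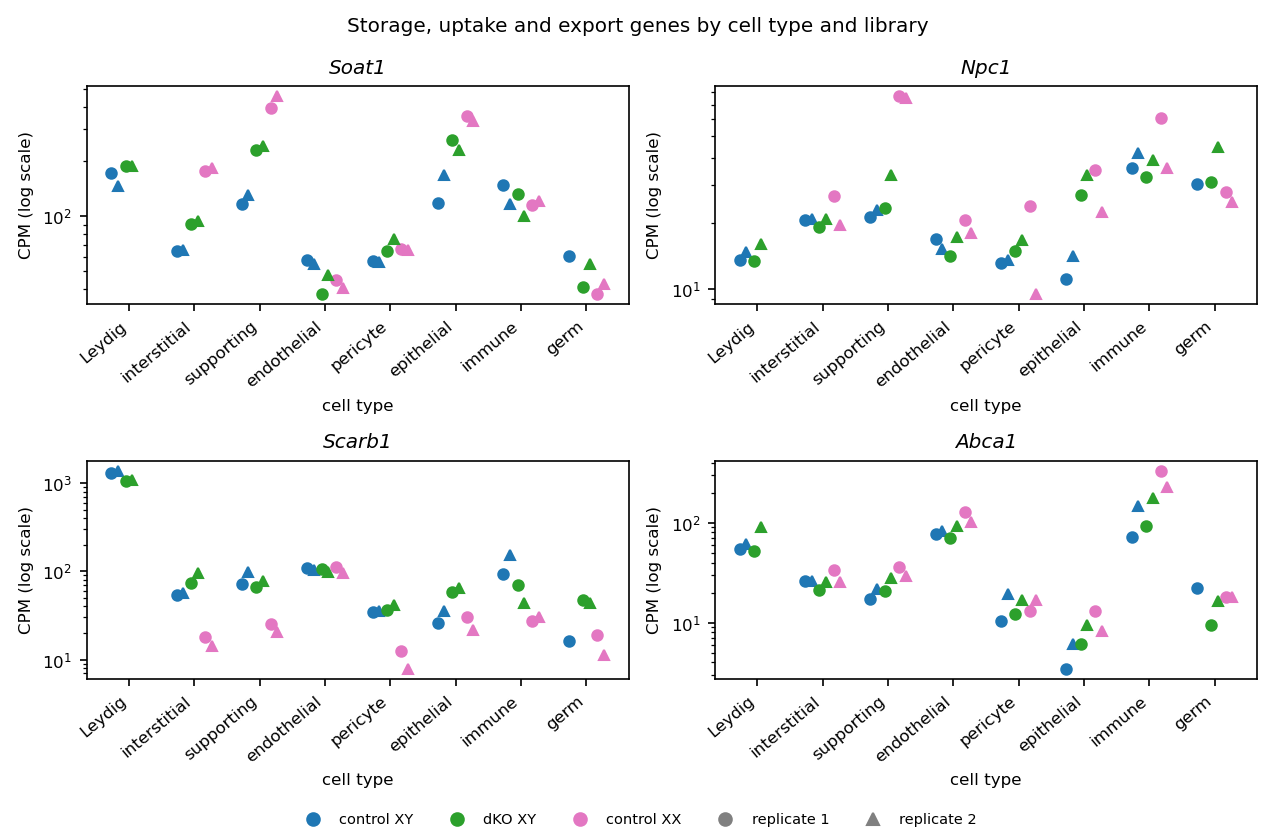
Levels (CPM, log scale) of *Soat1*, *Npc1*, *Scarb1* and *Abca1* in each cell type, with 1 point per library coloured by group and shaped by replicate. In supporting cells the *Soat1* points of the dKO XY libraries (232 and 243 CPM) stand between those of the other groups, and *Scarb1* lies between 1060 and 1390 CPM in Leydig cells and at or below 153 CPM in every other type.

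The comparison of control XX with control XY asks how the genes differ between ovary and testis in cell types present in both. In interstitial cells, 23 of the 29 were lower in control XX and 3 higher (edgeR quasi-likelihood test, Benjamini-Hochberg), where 25.3% of all genes were called, 11.9% higher and 13.4% lower. The median over the 29 was −0.89, against 0 over all genes. All 18 enzymes and all 3 sensing genes were lower, and the enzyme sum of 543.2 and 471.9 CPM in control XX was 0.446 times that of control XY. Of the 8 handling genes, 2 were lower and 3 higher.

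*Msmo1* had 133 and 129 CPM in control XY interstitial cells but 36.4 and 33.5 in ovarian ones (−1.84 ± 0.105, adjusted p = 1.49e-05, edgeR). *Fdps* was at 149 and 130 against 46.9 and 45.8 CPM (−1.52 ± 0.1, adjusted p = 3.03e-05, edgeR). *Idi1*, the isopentenyl diphosphate isomerase, was at 95.1 and 87.5 against 32.4 and 32.1 CPM (−1.43 ± 0.111, adjusted p = 6.51e-05, edgeR). In dKO XY, these 3 genes were at 124 and 109, 133 and 138, and 95.4 and 83.2 CPM, each above both control XX values. *Lss* changed by −1.38 ± 0.139, *Sqle* by −1.31 ± 0.101 and *Nsdhl* by −1.21 ± 0.127. *Scarb1*, at 18.2 and 14.2 CPM in control XX, changed by −1.71 ± 0.144 (adjusted p = 9.83e-05, edgeR), and *Soat1*, at 177 and 185 CPM, by 1.55 ± 0.0954 (adjusted p = 2.07e-05, edgeR). *Npc2*, the lysosomal partner of NPC1, and *Lipa* were higher by 0.46 ± 0.129 and 0.31 ± 0.094.

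Interstitial cells of the ovary and testis fell into different clusters. Nearly all control XX cells, 1529 and 2932, were in a cluster led by *Il33*, *Gdf10* and *Crabp1*, which held 281 and 257 control XY cells. Within this cluster the enzyme sums were 542.4 and 471.4 CPM for XX against 1116 and 1303 for control XY, with dKO XY at 970.2 and 966.8, so the gap between XX and XY was there too. Leydig markers summed to 58.37 and 68.18 CPM in control XX interstitial cells and 633 and 553.5 in control XY, and with the Leydig profile subtracted, 20 of the 29 were lower and 3 higher, where 24.8% of all genes were called. The enzyme sums of control XY were then 988.2 and 975.8 CPM. *Scarb1* then changed by −1.1. The 6 cell cycle markers summed to 732 and 744.7 CPM in control XX against 1204 and 1234 in control XY, and their part in the difference was not tested.

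Endothelial cells differed in the same direction with fewer calls. In control XX, 12 of the 29 were lower and 0 higher, where 4.91% of all genes were called, 1.73% higher and 3.18% lower, and the median over the 29 was −0.6, against 0. The calls comprised 3 mevalonate, 3 squalene, 4 lanosterol and 2 sensing genes. *Cyp51*, the lanosterol demethylase, had 51.6 and 44.4 CPM in XY controls but 13.4 and 16.1 in XX (−1.66 ± 0.18, adjusted p = 0.000196, edgeR). *Msmo1* was at 67.9 and 64.2 against 21.6 and 22 CPM (−1.55 ± 0.143, adjusted p = 4.94e-05, edgeR). No handling gene was called, and *Scarb1*, at 108 and 105 against 111 and 95.9 CPM, did not differ beyond its spread. Without control XY replicate 2, 6 of the 29 were called, where 1.2% of all genes were. With the Leydig profile subtracted, 8 were, where 4.31% of all genes were.

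**Figure D5:**
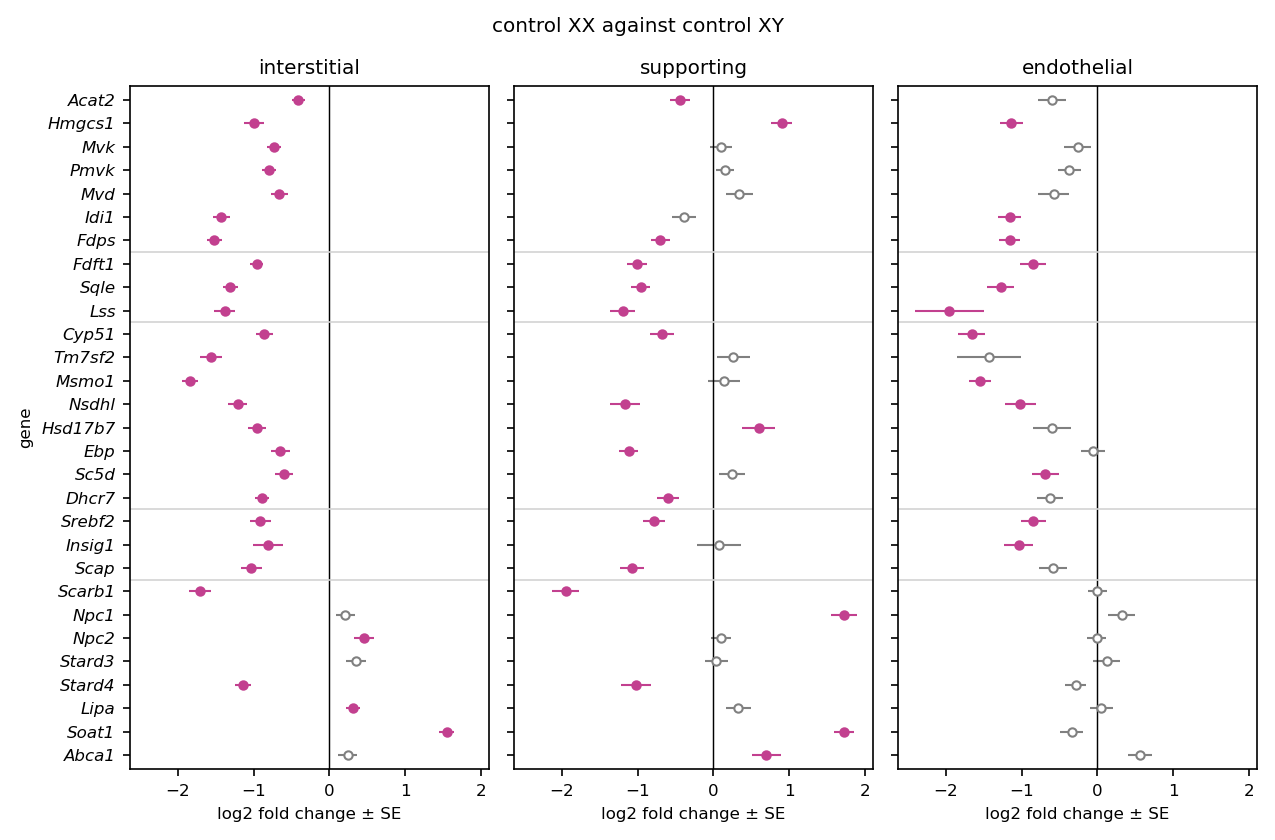
Log2 fold change between control XX and control XY (± SE) of each of the 29 genes in interstitial, supporting and endothelial cells, with filled points for an adjusted p under 0.05 (edgeR quasi-likelihood test). Of the filled points, 23 of 26 in interstitial cells, 13 of 18 in supporting cells and 12 of 12 in endothelial cells lie below 0.

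In supporting cells the genes split, with 13 lower and 5 higher in control XX, where 49% of all genes were called, 25.3% higher and 23.7% lower, and with a median of 0.04, against 0.03 over all genes. The enzyme sum was 811.7 and 873.4 CPM in control XX, 0.963 times that of control XY. By role, the ratio of control XX to control XY was 0.517 for the squalene steps and 0.652 for the sensing genes, beside 0.421 and 0.518 in interstitial cells, and 1.21 for the mevalonate enzymes, beside 0.461. The difference between these cell types was not tested. In supporting cells, the enzyme sum and the mevalonate ratio were both raised by *Hmgcs1*, with a mean of 139 CPM in control XY and 270 in control XX. The means of *Fdps* (115 and 73.8 CPM), *Idi1* (50.3 and 39.8) and *Acat2* (26 and 19.8) were lower in control XX. Those of *Mvk*, *Pmvk* and *Mvd* were higher. These cells were granulosa-like in control XX, 2998 and 1189 of them in a single cluster, and Sertoli-like in control XY, with 248 and 526 in another, so the comparison is between those clusters.

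*Hmgcs1* and the squalene steps of synthesis went opposite ways in these cells. *Hmgcs1* had 136 and 142 CPM in XY controls but 277 and 263 in XX (0.9 ± 0.136, adjusted p = 0.000402, edgeR), with dKO XY at 207 and 163. All 3 enzymes of the squalene steps were lower, with −1.01 ± 0.129 for *Fdft1*, −0.96 ± 0.125 for *Sqle* and −1.2 ± 0.166 for *Lss*. *Ebp*, a sterol isomerase, and *Nsdhl* were lower by −1.12 ± 0.125 and −1.17 ± 0.202, and *Hsd17b7*, a ketoreductase of the same steps, was higher by 0.6 ± 0.219. Both *Srebf2* and *Scap* were lower, by −0.79 ± 0.144 and −1.07 ± 0.159.

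Handling genes held the changes furthest from 0 in supporting cells. *Scarb1* had 72.2 and 97.7 CPM in XY controls but 25 and 20.5 in XX (−1.95 ± 0.176, adjusted p = 1.23e-05, edgeR). *Soat1* was higher by 1.73 ± 0.131 (adjusted p = 3.8e-06, edgeR) and *Npc1* by 1.72 ± 0.172 (adjusted p = 2.48e-05, edgeR), with the values given above. *Abca1*, which exports cholesterol to apolipoproteins, was called higher by 0.7, but its log2 fold change was −0.07 when the listed genes took part in the clustering. The supporting cluster led by *Myl1* then held 98 and 150 control XY cells in place of 14 and 20, and their part in this change was not tested. *Stard4* was lower by −1.02 ± 0.196.

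The remaining cell types were read as levels. In epithelial cells the enzyme sum was 978.4 and 932.3 CPM for control XY, then 770.4 and 674 for dKO XY, then 398.1 and 365.7 for control XX, with no overlap among the 3 groups. These sums came from 30 and 41, 189 and 298, and 206 and 114 cells. Epithelial cells of dKO XY replicate 2 had a median of 16608 UMIs, against 30397 to 38959 in the other libraries. Pericytes had 840.9 and 866.9, 830.5 and 764.1, and 430.1 and 616.2 CPM. Immune cells had 276.2 and 350.2 CPM for control XX against 850.4 and 1068 for control XY, with dKO XY at 823.8 and 489.4, and control XX had the fewest cells, 29 and 52. The level of the 4 Leydig genes in immune cells was 3.38% and 5.11% of that in Leydig cells for control XY and 2.47% and 0.367% for dKO XY. With that share of the Leydig profile subtracted, the immune sums were 461.3 and 521.8 CPM for control XY and 629.9 and 461.1 for dKO XY, still above both control XX values. In epithelial cells the subtracted sums were 941.4 and 904.5 CPM for control XY and 730.1 and 629.4 for dKO XY, and in pericytes they were 793.7 and 826.5, and 787.3 and 737.8. Immune cells also held the highest *Npc2* of all types, at 744 and 709 CPM in control XY, and the highest *Lipa*, at 75.7 and 94.3.

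Germ cells allowed only dKO XY and control XX to be compared, with 419 and 278 against 259 and 227 cells, because control XY held 15 and 7. Of the 29 genes, 19 were higher in dKO XY and 2 lower, where 49.5% of 14671 genes were called, 24.8% higher and 24.7% lower. The median over the 29 was 0.85, against 0.02 over all genes. *Fdft1* had 81.9 and 85.7 CPM in dKO XY germ cells against 23.1 and 17.7 in control XX (2.1 ± 0.198, adjusted p = 1.51e-13, edgeR). *Msmo1* was at 73.4 and 50.9 against 22.9 and 17.1 CPM (1.71 ± 0.208, adjusted p = 5.35e-10, edgeR). *Scarb1* was at 47.6 and 44.3 against 19.1 and 11.3 CPM (1.66 ± 0.217, adjusted p = 3.89e-09, edgeR). The 2 genes that were lower were *Scap*, at 18.5 and 24.9 against 50.4 and 44.2 CPM (−1.07 ± 0.203, adjusted p = 1.34e-05, edgeR), and *Acat2*, at 34.4 and 31.3 against 61.7 and 46.8. With the Leydig profile subtracted, 16 were higher and 2 lower, where 49.2% of all genes were called. Genotype, sex chromosomes and germ cell stage cannot be told apart in this comparison. At this age the paper saw the meiotic marker SYCP3 in germ cells of the control ovary and of the dKO XY poles. It reports that those in the central cords of the dKO XY gonad had not entered meiosis.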

How the data were processed

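Single cell mRNA from 6 gonad libraries of E15.5 embryos was analysed. The raw UMI counts per gene and cell barcode that the authors deposited were made with Cell Ranger on mm10, per the submitters' processing notes, include a correction for swapped barcodes and are not normalized. Reads that also map to processed copies of a gene were not examined here. Groups were taken from the sample titles. The study's filter was applied, which retains barcodes with 2500 to 9000 genes (limits excluded), below 25% mitochondrial and below 20% *Hbb* UMIs. Genes that a library did not list were set to 0 in it.

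Clusters were computed in Seurat 5.3.0 (R 4.3.3) from 3000 variable genes, 20 dimensions and a resolution of 0.21. From the variable genes, 34 genes of the lists were left out, 24 of them among the 29. To name a cluster, 3 or more markers of a class had to be detected in 10% of the cells and to exceed the level of the remaining cells by 1.5 times. With the lists put back, 98% of cells had the same type, but the Leydig cluster went from 3283 to 2776 cells. Scrublet (scanpy 1.11.5) set automatic thresholds that marked 0 to 129 cells per library, so doublets stayed in, and an alternative removed the top 8% of cells by score.

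UMIs were summed for each library and type of 10 or more cells and tested with edgeR 4.0.16 (filterByExpr, TMM, glmQLFit, glmQLFTest), with genotype as the factor and all 3 groups in a fit, or the XY libraries alone for Leydig cells. Comparisons of cell types had the library as a block. Adjustment was by Benjamini-Hochberg over all genes tested, with calls under 0.05. All 29 genes passed the filter in every comparison. The SE of a log2 fold change is its size over the root of F. Each test was also run on counts with known fold changes, simulated from its own fitted means and spread. Such counts cannot check the estimate of the spread itself. With 2 libraries per group, the fits had 2 to 20 residual degrees of freedom. DESeq2 1.42.0 and the other alternatives are given in the closing section.

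The 29 genes and the other lists were chosen with earlier results of these data known. Named with full values were up to 8 called genes per comparison with the largest change and a mean level of at least 10 CPM. Gene coordinates are those of GENCODE M21 (GRCm38), and promoters are from RefSeq (GRCm38.p6), with no entry for *Fdps*, *Fdft1*, *Sqle*, *Scarb1*, *Npc1* and *Stard4*.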

Additional observations from a re-analysis of the deposited data

Results flagged for a closer look

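Groups of 2 libraries allow no test for an outlying library, and the results below stand here because the effect of the dKO genotype differed between cell types by a direct test. Against interstitial cells, the effect in Leydig cells was lower for 23 of the 29 genes (edgeR quasi-likelihood test of the interaction, Benjamini-Hochberg), where 11.8% of all genes were called in either direction. The log2 differences between the effects furthest from 0 were −0.98 for *Scarb1*, −0.9 for *Dhcr7* and −0.84 for *Lss*. *Scarb1* changed by −0.36 in Leydig cells and by 0.62 in interstitial cells. In Leydig cells under 10% mitochondrial UMIs its change was 0.08, and the interstitial call was lost without control XY replicate 1, control XY replicate 2 or dKO XY replicate 2. Against supporting cells, the effect in Leydig cells was lower for 17 genes and higher for 1, where 8.83% of all genes were lower and 11.6% higher, with −0.99 for *Mvd*, −0.97 for *Hmgcs1* and −0.83 for *Tm7sf2*, and with 0.44 for *Scap*. A cluster of supporting cells with 445 cells of each dKO XY library held 14 and 20 of control XY, and its part in the difference was not tested. Cells under 5% mitochondrial UMIs were 39.4% and 16.8% of dKO XY and 17% and 6.62% of control XY Leydig cells, which overlap, and with cells under 10% alone the effect differed for 2 genes from that in interstitial cells (3.34% of all genes called) and for 7 from that in supporting cells (12.3%). Fewer genes also differed in both comparisons when the listed genes took part in the clustering.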

How the results depend on the processing

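Alternatives were scaling by DESeq2 size factors, DESeq2, no filter on low counts, doublets left out, the lists among the variable genes, a replicate block or no library block, fewer groups or clusters, and each library left out in turn. Cells under 10% mitochondrial UMIs alone, the Leydig profile subtracted and crossed replicate numbers were added after seeing the data. Of the 29 genes, dKO XY Leydig cells had 19 calls, but 6 with the lists among the variable genes, 1 in cells under 10%, where *Scarb1* turned to 0.08, and 8 to 22 with a library left out (8 without control XY replicate 1). Interstitial cells had 2, but 1 with the lists, 0 with the replicate block and 0 to 2 with a library left out. Supporting cells had 1, but 3 with DESeq2, 3 without the filter, 3 without doublets, 2 with the lists, 4 in the largest control XY cluster alone and 1 to 2 with a library left out. Control XX endothelial cells had 12, and 6 to 13 with a library left out. The difference between Leydig and interstitial effects had 23, but 15 with the lists, 2 in cells under 10%, where *Mvk* turned to 0.03 and *Fdft1* to 0.00, and 5 without the library as a replicate block. With the Leydig profile subtracted, *Tm7sf2* turned to 0.01. The difference from supporting cells had 18, but 8 with the lists, 7 in cells under 10% and 7 without the library as a replicate block. In control XX supporting cells, *Abca1* turned to −0.07 with the lists. The cause of these changes was not tested. For dKO XY supporting cells the main fit called 2680 of 15945 genes, and totals over all genes are not given for their alternatives. The counts of the comparisons of Leydig with other cell types, of control XX with control XY interstitial and supporting cells and of germ cells stayed within 1.5 times under the alternatives run.

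Over all genes, calls in dKO XY Leydig cells were 988, but 2152 without the filter, 2235 with the replicate block and 623 with the lists, and in interstitial cells 1227, but 744 with the block. In dKO XY endothelial cells they were 68, but 390 without the filter and 133 with 2 groups, and in control XX endothelial cells 589, but 1115 without the filter. Germ cells had 7260, but 4527 with DESeq2. The difference from interstitial cells had 1978, but 1310 with DESeq2, 1079 with the lists, 543 in cells under 10% and 178 without the block, and that from supporting cells 3256, but 1975, 1850 in cells under 10% and 1461.

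The replicate numbers of the labels did not pair the libraries. Deviations of same-numbered libraries correlated by 0.13 in Leydig cells and between −0.21 and 0.1 in the other types, so the replicate block is given here only. With it, 24 of the 29 genes were called in dKO XY Leydig, 0 in interstitial, 1 in supporting and 0 in endothelial cells, 24, 17 and 11 in control XX interstitial, supporting and endothelial cells, and 20 in germ cells. With the control XX numbers crossed, the counts were 27 in interstitial cells and 21 in germ cells. Totals over all genes with the block are given above for dKO XY Leydig and interstitial cells alone, so the other counts stand without their share.

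Leaving out a library leaves a group with 1, assumed to vary like the others. With 2 libraries per group, differences smaller than the listed standard errors allow were not detectable, and genes with few UMIs, such as *Lss* with 16 and 4 UMIs in control XX endothelial cells, are imprecise.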

Other observations

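Lists of genes around the cholesterol pathway were also compared between control XX and control XY supporting cells. Of 10 fatty acid synthesis genes, 6 were lower in control XX and 1 higher, with log2 fold changes of −2.3 ± 0.128 (SE) for *Me1*, the cytosolic malic enzyme that supplies NADPH, −1.4 ± 0.204 for *Elovl6*, a fatty acid elongase, and 1.44 ± 0.347 for *Scd1*. Of 9 other lipoprotein receptors and sterol carriers, 4 were lower and 2 higher, among them the VLDL receptor gene *Vldlr* at −2.32 ± 0.37 and *Lrp8* at −2.22 ± 0.472, both at low levels. Of 8 other sterol regulators, 3 were lower and 2 higher, with 2.79 ± 0.216 for *Mylip*, whose product marks lipoprotein receptors for degradation, 2.52 ± 0.481 for *Nr1h3*, a sterol-activated nuclear receptor, and −1.98 ± 0.176 for *Abcg1*, a cholesterol exporter. In this comparison 49% of all genes were called, 23.7% lower and 25.3% higher, so the counts are not read as a trait of these lists. The calls are from edgeR's quasi-likelihood test with Benjamini-Hochberg adjustment.

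In interstitial cells of control XX, where 13.4% of all genes were lower and 11.9% higher, 4 of the 10 fatty acid synthesis genes were lower and 0 higher, with −1.62 ± 0.114 for *Me1* and −1.52 ± 0.156 for *Elovl6*, and 3 of the 9 receptors and carriers were lower and 0 higher, with −2.47 ± 0.292 for *Gramd1b*, which moves cholesterol from the plasma membrane, and −1.36 ± 0.176 for *Vldlr*. Of the 7 genes of the isoprenoid branches, which use the same precursors for other ends, 0 were called by edgeR, and 1, *Fnta*, had an unadjusted p under 0.05. *Gramd1b* was also 4.75 higher on the log2 scale in Leydig cells than in the mean of the other types.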
